A study of Mus musculus with 2 samples.

Results

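The erythroid lineage genes examined here were Car1, Car2, Klf1, Epor, Tfrc, Rhag, Hba-a1, Hba-a2 and Hbb-bs. They were chosen by symbol, and these 9 of the 31053 genes in the deposited count tables were each found once in both libraries. The libraries were single-cell 3′ RNA libraries (10x Genomics) of mouse bone marrow cells that carried the adhesion molecule E-cadherin on their surface, sorted into a fraction with the receptor cKIT (E-cadherin+cKIT+) and one without it (E-cadherin+cKIT-). The labels give the strain as FVB. For the same sort the study's text names wild-type mice and its figure legend names Vav-iCre;mTmG mice, in which Vav-iCre acts in cells of the hematopoietic lineage. Which genotype applies, how the marrow was divided between the libraries, and the age of the mice are not given in the labels. Each fraction was 1 library, so no difference between fractions has a replicate check, and every interval below is a 95% interval that covers counting error only.

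Erythroid cells arise from progenitors that carry cKIT, respond to erythropoietin and then fill with hemoglobin while cKIT is lost from the surface. Klf1 is the transcription factor that switches on many red cell genes, Epor encodes the erythropoietin receptor and Tfrc the transferrin receptor that brings in iron. Car1 and Car2 encode cytosolic carbonic anhydrases, which interconvert CO2 and bicarbonate. Rhag encodes a red cell membrane glycoprotein that transports ammonia and holds the Rh complex, Hba-a1 and Hba-a2 encode adult α globin, and Hbb-bs encodes an adult β globin.

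Promoters of 5 of these genes are shown because the genes were found together in the same small group of cells, while Klf1 and Epor were also found outside it. The 250 bases before each RefSeq start (GRCm38.p6) are printed 5′ to 3′ on the strand of the gene, with capitals for matches to a GATA motif and to a CACCC-type motif. These are letters bound by GATA1 and by KLF1 in erythroid cells. The windows are chr11:32283422-32283671 on the plus strand, chr7:103827929-103828178 on the minus strand, chr17:40810899-40811148 on the plus strand, chr8:84901732-84901981 on the plus strand and chr9:21963577-21963826 on the minus strand.
Hba-a1: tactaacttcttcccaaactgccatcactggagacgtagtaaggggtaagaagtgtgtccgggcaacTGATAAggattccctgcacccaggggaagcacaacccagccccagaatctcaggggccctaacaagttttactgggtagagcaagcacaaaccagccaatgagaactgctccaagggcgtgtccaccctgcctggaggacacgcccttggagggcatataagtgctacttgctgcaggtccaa
Hbb-bs: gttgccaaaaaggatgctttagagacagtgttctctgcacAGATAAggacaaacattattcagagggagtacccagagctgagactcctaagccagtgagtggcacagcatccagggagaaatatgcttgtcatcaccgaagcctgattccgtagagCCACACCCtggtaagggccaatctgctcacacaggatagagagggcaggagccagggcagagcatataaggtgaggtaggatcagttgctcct
Rhag: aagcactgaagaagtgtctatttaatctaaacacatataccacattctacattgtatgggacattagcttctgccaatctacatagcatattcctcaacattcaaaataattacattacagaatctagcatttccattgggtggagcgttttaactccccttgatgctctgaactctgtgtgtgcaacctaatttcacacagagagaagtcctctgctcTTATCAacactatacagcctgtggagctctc
Klf1: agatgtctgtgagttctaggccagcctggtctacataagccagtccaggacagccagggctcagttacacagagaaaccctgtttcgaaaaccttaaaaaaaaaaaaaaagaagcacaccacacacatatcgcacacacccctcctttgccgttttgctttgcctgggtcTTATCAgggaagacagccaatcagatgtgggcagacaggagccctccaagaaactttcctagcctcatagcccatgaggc
Epor: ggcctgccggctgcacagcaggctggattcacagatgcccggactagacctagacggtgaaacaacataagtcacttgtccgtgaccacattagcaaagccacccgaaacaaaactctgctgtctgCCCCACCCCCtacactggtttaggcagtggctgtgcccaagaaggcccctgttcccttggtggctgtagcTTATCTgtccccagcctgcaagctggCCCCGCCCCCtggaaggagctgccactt
The GATA motif was searched on both strands as AGATAA, as AGATAG, as TGATAA and as TGATAG. The CACCC-type motif was searched on both strands as CCNCNCCC, whose matches can overlap each other. Each of the 5 windows held 1 GATA match, and 26.5% of the 32851 promoters in the RefSeq table held at least 1. The CACCC-type motif was in 45.9% of all promoters, in the Hbb-bs window 1 time and in the Epor window 4 times with overlaps. The 7 members in the table were these 5, Hba-a2 and Tfrc, and Tfrc was the one without a GATA match. Matches are a description of letters and not of binding. The gene models of the files start upstream of the RefSeq start, inside the window, for Hba-a1, Hbb-bs, Rhag and Klf1. The table's entries for Hba-a1 and Hba-a2 shared a run of 297 of 300 bases, and their transcripts shared a run of 415 bases. Reads that lie within a shared run cannot be told apart by copy, so the counts of Hba-a1 and Hba-a2 are uncertain. How the counting treated such reads was not tested.

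In the genome build of the files (mm10, GRCm38), Car1 (3:14766216-14808368, minus strand) and Car2 (3:14886273-14900770, plus strand) lie close together on chromosome 3. Hba-a1 (11:32283511-32284465) and Hba-a2 (11:32296489-32297298) are likewise close together on the plus strand of chromosome 11. Hbb-bs lies at 7:103826534-103828096 and Epor at 9:21958897-21963506, both on the minus strand. Klf1 (8:84901928-84905291), Tfrc (16:32608920-32632794) and Rhag (17:40811126-40840754) are on the plus strand. UMIs are given per gene, and exons are not told apart.

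The E-cadherin+cKIT+ library kept 6479 of 6632 cells and 91108781 UMIs (unique molecular identifiers, each standing for 1 captured RNA molecule) after the study's cell filter, with a median of 13039 UMIs per cell. The E-cadherin+cKIT- library kept 3662 of 3745 cells and 22869169 UMIs, with a median of 4416.5. The libraries shared 10 cell barcodes. Of the genes behind the sort, Kit was at 37.1 CPM (the standard scaling of a gene's UMIs to the total UMIs of the library or class) in E-cadherin+cKIT+ cells and 0.875 CPM in E-cadherin+cKIT- cells, while Cdh1, the E-cadherin gene, was at 62.8 and 193 CPM. Most cells of both libraries fell in clusters with the basophil genes Mcpt8 and Prss34. The members were therefore measured in fractions that are mostly basophil-like.

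The cell filter, which removed cells in the highest and lowest 1% of genes and the highest 1% of UMIs, decided several member values and is given first. In E-cadherin+cKIT+ it removed 153 cells with 4.58% of the UMIs, but 65.7% of the Car1, 44.4% of the Rhag, 41.6% of the Car2, 31.4% of the Klf1 and 29.2% of the Epor UMIs. Of the cKIT+ cells with 20 or more Car1 UMIs, a limit chosen after the values were seen, 20 were kept and 20 were removed. In E-cadherin+cKIT- it removed 62.9% of the Hba-a1 and 63.0% of the Hbb-bs UMIs, since 11 of 16 globin-rich cells were removed, 10 of them for too few genes. The lowest number of genes that passed differed between libraries, at 95.31 in cKIT+ and 433.2 in cKIT-, because the limit was a percentile of each library. Values below are for kept cells unless they are given as without the filter.

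Summed over kept cells, 6 of the 9 genes were at least 2-fold higher in the E-cadherin+cKIT+ library, and none was 2-fold lower. Without the cell filter 4 were higher, namely Car1, Car2, Klf1 and Tfrc. Of the 9459 genes that reached 5 CPM in either library, 8.52% were 2-fold or more higher in E-cadherin+cKIT+ and 9.32% in E-cadherin+cKIT-. Of the members, 7 passed that minimum, with a median log2 ratio of 1.24 against -0.02 for all genes, and Epor and Rhag did not pass it. In kept cells most members were thus skewed to the cKIT+ library, where the share of all genes was small in either direction. Without the filter the ratios of Hba-a1 (0.890), Hba-a2 (0.607) and Hbb-bs (0.868) were below 1.

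Car1 had the widest gap, with 28.1 CPM (2559 UMIs) in E-cadherin+cKIT+ and 0.875 CPM (20 UMIs) in E-cadherin+cKIT-, a ratio of 32.1 (20.8 to 52.7). Without the cell filter the levels were 78.1 and 3.29 CPM and the ratio 23.8, with a lower bound of 19.0. Klf1 was at 9.52 and 1.36 CPM, 7.02-fold higher in E-cadherin+cKIT+ (4.91 to 10.4). Tfrc was at 24.7 and 5.25 CPM, 4.71-fold higher (3.92 to 5.71). These genes kept their direction without the filter, at 6.0-fold for Klf1 and 4.21-fold for Tfrc. Car2 was at 48.4 and 23.0 CPM, a ratio of 2.10 (1.92 to 2.30). It was found in 227 E-cadherin+cKIT- cells and Car1 in 3, but 5 cells held 50.7% of the Car2 UMIs of that library. Without the 5 richest cells of each library Car2 was at 40.9 and 11.4 CPM, a ratio of 3.59 (3.16 to 4.08). Without the filter Car2 was at 79.0 and 29.1 CPM, a ratio of 2.71 (2.51 to 2.94). Epor was low in both, at 2.48 and 1.71 CPM, with a ratio of 1.45 (1.03 to 2.10), and 1.78 (1.30 to 2.50) without the filter. Rhag was at 1.25 and 1.27 CPM, a difference not detectable at this depth (ratio 0.987, 0.652 to 1.54). Without the filter Rhag was at 2.15 and 1.87 CPM, a ratio of 1.15 (0.827 to 1.62).

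The globins were the most abundant members. Hbb-bs reached 1125 CPM in E-cadherin+cKIT+ and 485 CPM in E-cadherin+cKIT-, a ratio of 2.32 (2.27 to 2.37), and Hba-a1 reached 474 and 201 CPM, a ratio of 2.36 (2.29 to 2.43). Hba-a2 was far lower, at 7.04 and 5.77 CPM, and at 6.80 and 11.2 CPM without the cell filter. This direction was not stable. Without the cell filter Hba-a1 was at 458 and 515 CPM, a ratio of 0.890, and Hbb-bs at 1083 and 1248 CPM, a ratio of 0.868, so that E-cadherin+cKIT- was then the higher library. Few cells carried these genes: 50% of the Hbb-bs UMIs lay in 21 cells of E-cadherin+cKIT+ and in 2 cells of E-cadherin+cKIT-. In library sums, fewer cells with a gene and less RNA per cell cannot be told apart.

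**Figure D1:**
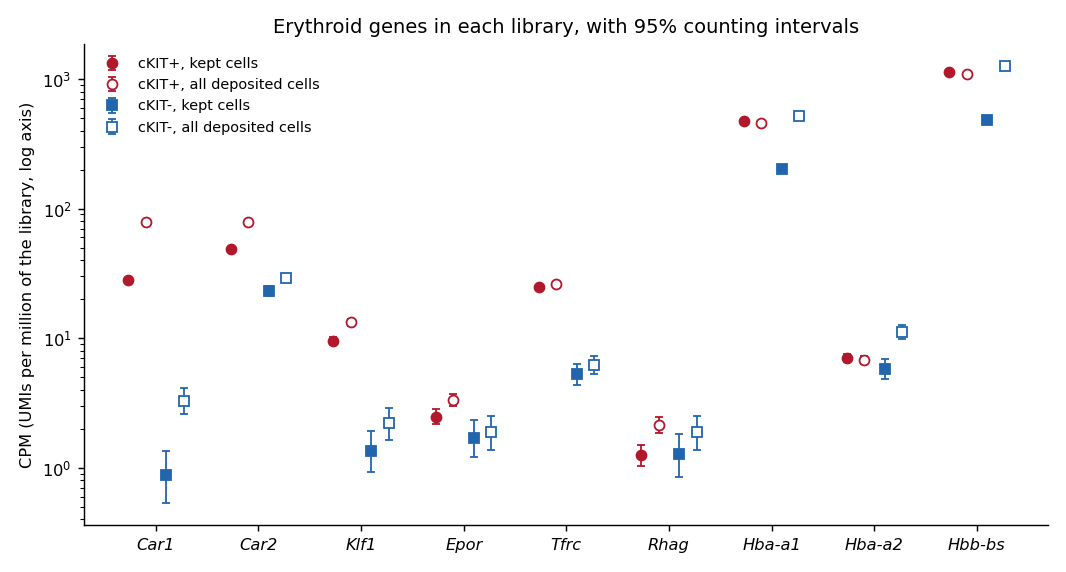
Level of each gene in each library in CPM on a log axis, 1 library per group, with bars for 95% exact Poisson intervals. Filled marks are sums over kept cells and open marks are sums over all deposited cells. In kept cells Car1 shows the widest gap (28.1 against 0.875 CPM), and the intervals of Epor, Rhag and Hba-a2 overlap. The open marks of the globins are higher in E-cadherin+cKIT-.

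Counted as cells, with every cell thinned to 2000 UMIs so that the deeper library gained no advantage, 14.9% (14.0 to 15.8) of E-cadherin+cKIT+ cells and 4.45% of E-cadherin+cKIT- cells had a UMI of at least 1 member. These shares were 53.2% and 12.6% with all UMIs. Car2 was found in 5.15% and 2.12% of thinned cells, Tfrc in 4.04% and 0.574%, Hbb-bs in 3.65% and 1.35%, Car1 in 1.73% and 0.0574%, Klf1 in 1.66% and 0.143%, and Rhag in 0.277% and 0.0574%. Car2, Tfrc and Hbb-bs were therefore the most widespread members, and Rhag and Epor (0.408% and 0.143%) the rarest in E-cadherin+cKIT+.

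A share of cells with a UMI is not a share of cells that express the gene. Hbb-bs had a UMI in 2.54% of thinned basophil-like cells, 1.81% of granulocyte/monocyte progenitor-like cells and 2.89% of neutrophil-like cells, whose median depths before thinning were 14310.5, 25842 and 11584 UMIs. The low share in these unrelated classes is called the background share of the globins below, and its source was not tested. Not every other class was equally low in globins, as given below for the macrophage-like class. Car1 had a UMI in 0.41%, 0.602% and 0.723% of the same classes, and Rhag in 0 of 3903 thinned basophil-like cells (upper bound 0.0945%). Tfrc went the other way, with 2.54% of basophil-like and 12% (9.32 to 15.2) of granulocyte/monocyte progenitor-like cells, which is more than counting error.

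Cells were clustered, and 1 cluster carried 14 of 14 erythroid markers, none of them a member. It held 77 E-cadherin+cKIT+ and 5 E-cadherin+cKIT- cells and is called erythroid-like. All 9 members were among the genes used for clustering, so that their height in this cluster is a description. In its cKIT+ cells Hbb-bs was at 108797 CPM, Hba-a1 at 45750, Car2 at 2580, Car1 at 1852, Hba-a2 at 653, Klf1 at 282, Tfrc at 257, Rhag at 120 and Epor at 53.8. With cells clustered again without the filter, Car1 was at 3261 CPM, Hbb-bs at 48066 and Hba-a1 at 20399. When cells were thinned before clustering, Car1 was at 462 CPM. Levels were still taken from all UMIs, so which cells fell in this cluster depended on depth. Under that setting 8 values for this cluster moved and 2 stayed within their limits. Of 5999 genes compared, 4.42% were at least 4-fold higher in the erythroid-like cells than in the other cKIT+ cells, and the 9 members were among them. For each member this cluster was the highest class, and its interval did not overlap that of the next class.

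The next class in order differed by gene. Car1 was next highest in the cluster with the highest Kit, at 133 CPM, and Klf1 too, at 30.7 CPM against 7.61 in basophil-like cells. For Epor it was the macrophage-like class, at 22.2 CPM (11.5 to 38.8), above the 6.13 CPM of the highest-Kit cluster. Hba-a1 and Hbb-bs were also next highest in the macrophage-like class, at 46.3 CPM (29.9 to 68.3) and 124 CPM (96.1 to 157). In basophil-like cells that were not globin-high they were at 3.81 and 10.2 CPM. Car2 was at 67.6 CPM in B cell-like, 50.1 in highest-Kit and 41.8 in dendritic-like cells, which did not differ beyond their intervals. Tfrc was at 66.3 CPM in low-depth eosinophil-like, 56.0 in B cell-like and 53.8 in granulocyte/monocyte progenitor-like cells, also with overlapping intervals. Rhag had 4 UMIs in basophil-like and 1 in granulocyte/monocyte progenitor-like cells and none in the remaining classes, where a count of 0 allows from 0.524 CPM in the neutrophil-like to 6.99 CPM in the B cell-like class.

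**Figure D2:**
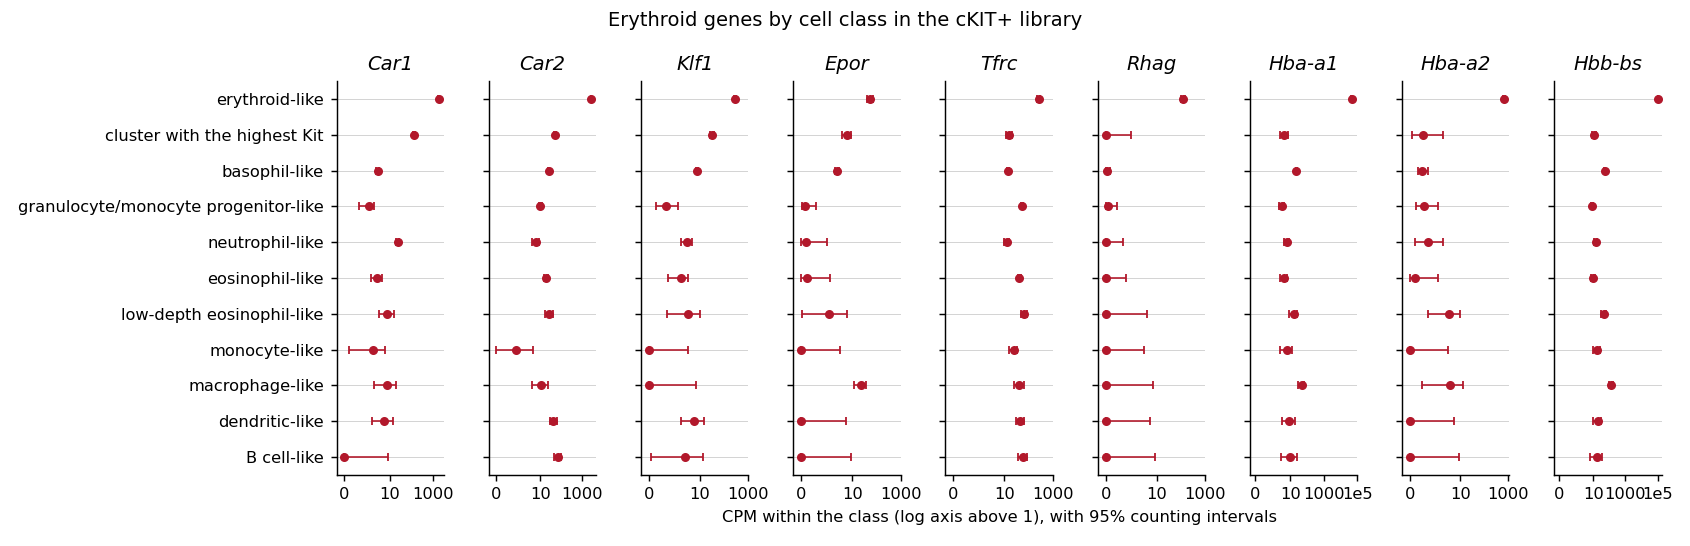
Level of each gene within each cell class of the E-cadherin+cKIT+ library, in CPM on an axis that is logarithmic above 1, with 95% counting intervals over the UMIs of the class. The erythroid-like class is highest for every gene, and Car1 and Klf1 have their next highest level in the cluster with the highest Kit.

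Where the molecules lay, rather than where they were densest, set the genes apart further. Globin-high cells were those with at least 5% of their UMIs from Hba-a1, Hba-a2 and Hbb-bs, which 56 kept cKIT+ cells reached, from 5.56% to 89.3% with a median of 58.0%. The cell just outside had 4.37%. These 56 cells held 98.0% of the Hba-a1, 97.7% of the Hbb-bs and 58.8% of the Rhag UMIs, but 2.97% of the Car1 UMIs. The 22 other erythroid-like cells held 63.0% of the Car1 and 36.8% of the Rhag UMIs. Between them these cells carried nearly all of the Rhag and globin molecules, and most of those of Car1.

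Klf1, Epor and Tfrc were different in kept cells. The 3917 basophil-like cells held 51.9% of the Klf1, 60.2% of the Epor and 36.8% of the Tfrc UMIs, and 34.4% of the Car2 UMIs, at low levels spread over many cells. For Klf1 this rested on the filter, since without it the erythroid-like cluster held 51.2% of the Klf1 UMIs of the library. That cluster then held 134 of 319 Epor UMIs (42.0%), and the 3917 basophil-like cells held 136. Basophil-like cells were 3917 of the 6479 kept cells, so large shares there are not enrichment. Klf1 in them was at 7.61 CPM and Epor at 2.30 CPM, below the 9.52 and 2.48 CPM of the whole kept library. In the erythroid-like cells that were not globin-high they were at 314 and 47.3 CPM. Tfrc had 50.1% of its UMIs in the remaining classes. Basophil-like clusters varied among themselves, from 0 to 14.3 CPM for Klf1 and from 0 to 7.20 CPM for Car1 over 12 clusters.

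**Figure D3:**
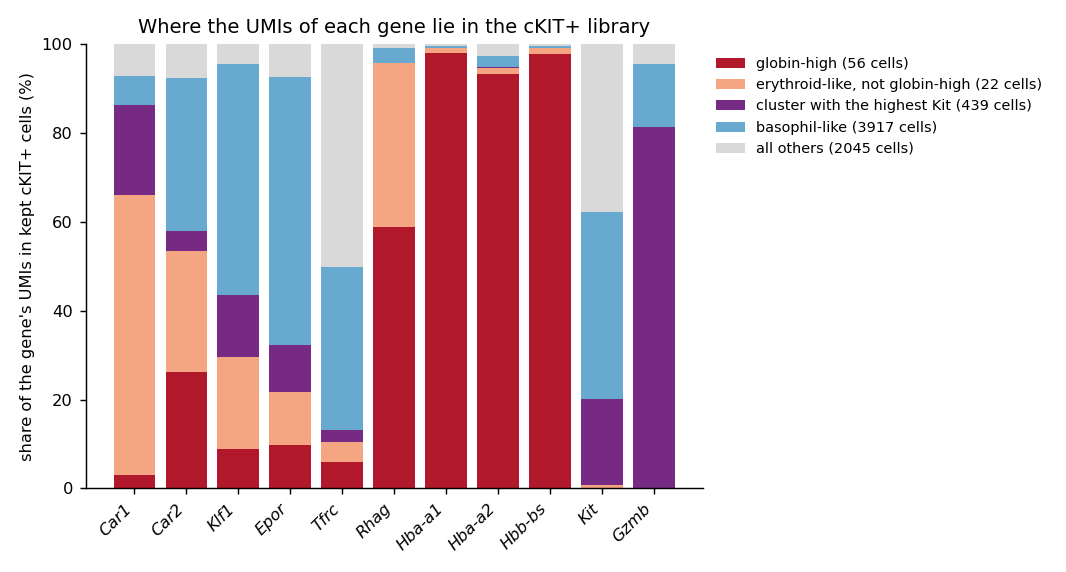
Share of each gene's UMIs, in percent of those in kept E-cadherin+cKIT+ cells, that lay in globin-high cells, basophil-like cells, the highest-Kit cluster, other erythroid-like cells and the rest. The globins lie in globin-high cells (98.0% of Hba-a1) and Car1 mostly in the other erythroid-like cells (63.0%). Klf1 and Epor lie mostly in basophil-like cells (51.9% and 60.2%), which are 3917 of the 6479 kept cells. Without the filter 51.2% of Klf1 UMIs lie in the erythroid-like cluster.

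Within the erythroid-like cluster of E-cadherin+cKIT+, Car1 and the globins lay in different cells. The 22 cells that were not globin-high had 0 to 264 Car1 UMIs with a median of 44, and 19 of 22 had at least 1. The 55 globin-high cells of the cluster had 0 to 26 with a median of 0, and 7 of 55 had at least 1. Car1 was at 2824 CPM in the former and 223 CPM in the latter, 12.7-fold lower in globin-high cells (10.1 to 16.2). Over all 5602 genes compared, 26.5% were at least 4-fold lower in globin-high cells and 5.05% at least 4-fold higher. Among the members that are not globins, Car1 was at least 4-fold lower and none was at least 4-fold higher. A 4-fold lower level was thus common among all genes in this comparison.

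Globins, Hbb-bt included, took 43.9% of all UMIs in the globin-high cells and 0.346% in the others, which lowers every other gene as CPM. The median depth also differed, at 4747 and 29865.5 UMIs. With CPM computed on the UMIs that were not globin, Car1 was at 398 and 2834, still 7.13-fold lower in globin-high cells (5.66 to 9.09). On that scale the other members were level or higher in globin-high cells. Rhag was at 350.5 against 73.9, 4.74-fold higher (3.18 to 7.15), and Tfrc at 691 against 179, 3.85-fold higher (2.95 to 5.03). Car2 was 2.87-fold higher (2.64 to 3.11) and Epor 2.42-fold (1.32 to 4.42). Klf1 was 1.30-fold higher (0.980 to 1.70) on this scale and 0.730 of the other cells' level as CPM of all UMIs, so its direction depended on the scale. In UMIs per cell the globin-high cells had fewer of each of these genes, such as 21.0 against 54.4 for Car2.

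Within this cluster Kit was found mainly in the cells that were not globin-high. It had 22 UMIs in these 22 cells, in 8 of them, and 1 UMI in the 55 globin-high cells, which were shallower. On the UMIs that were not globin this was 38.7 against 5.23 CPM, 7.40-fold with a wide interval (1.20 to 305). As CPM of all UMIs, Kit was at 38.6 in the 22 cells, near the 37.1 of all kept E-cadherin+cKIT+ cells. Gzmb, the granzyme B gene of cytotoxic and some mast cells, had 0 UMIs in the 22 cells and 1 in the globin-high cells. The Car1-rich end of this cluster thus held Kit without Gzmb.

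Ordered by globin share in ranges chosen after the values were seen, the cluster made at full depth ran from Car1 to globin. That these cells formed 1 cluster depended on depth. The 7 cells with no globin UMI had Car1 at 2684 CPM of the UMIs that were not globin, the 10 cells above 0 and up to 0.5% had 3112, the 5 cells from 0.5 to 5% had 1923, the 22 cells from 5 to 50% had 495, and the 33 cells at 50% or more had no Car1 UMI, which allows up to 20.3 CPM of all UMIs. Rhag over the same ranges was at 34.5, 88.4, 134, 286 and 613, and Tfrc at 118, 206, 251, 605 and 1039. Both were higher in each range than in the one before, with overlapping intervals between neighbours at the low end. The 134 for Rhag came from a single cell with 8 UMIs. In the last range all Rhag and Tfrc UMIs lay in cells at 72.4% globin or less. The cells at 76.7% or more had no Rhag, Tfrc, Klf1 or Epor UMI and at most 12 Car2 UMIs each. Those cells had few UMIs that were not globin, and the rise is one between pooled ranges. Car2 was at 704, 2909, 2760, 4388 and 12788, already high before globin was. Epor was at 44.3, 42.5, 83.6, 111 and 133, from few UMIs. Klf1 was at 172, 370, 518, 436 and 293, with overlapping intervals in the middle ranges, where the 5 cells had a median of 808 UMIs. The ranges were cut on globin, so only the other genes are compared, and the same cells differ in depth along the order.

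The 20 removed cKIT+ cells with 20 or more Car1 UMIs resembled the globin-poor end. They had 44810 to 73838 UMIs, and 29 to 567 of these were Car1 with a median of 212. Car2 ranged from 71 to 328, Klf1 from 6 to 30 and Epor from 1 to 10, and all 20 cells had each of these genes. Rhag was in 19 of 20 and Kit in 15 of 20, while Gzmb and Cdh1 were in 1 and 2. Every one of these cells also had the Rh gene Rhd, which was not used to choose them. Elane, a marker of the granulocyte/monocyte progenitor-like class, was in 9 of 20. It had 373 UMIs in a cell with 35 Car1 UMIs and at most 5 in any of the others. When all cells were clustered again without the filter, the erythroid-like cluster had 97 cKIT+ cells, 21 of them cells the filter removes. It then held 89.6% of the Car1, 97.6% of the Rhag and 71.5% of the Car2 UMIs of the library. Car1 in it was at 3806 CPM in cells that were not globin-high and 242 CPM in globin-high cells. Scrublet called 0 of the 20 removed cells a doublet, and 292 of all 6632 cells of the library.

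**Figure D4:**
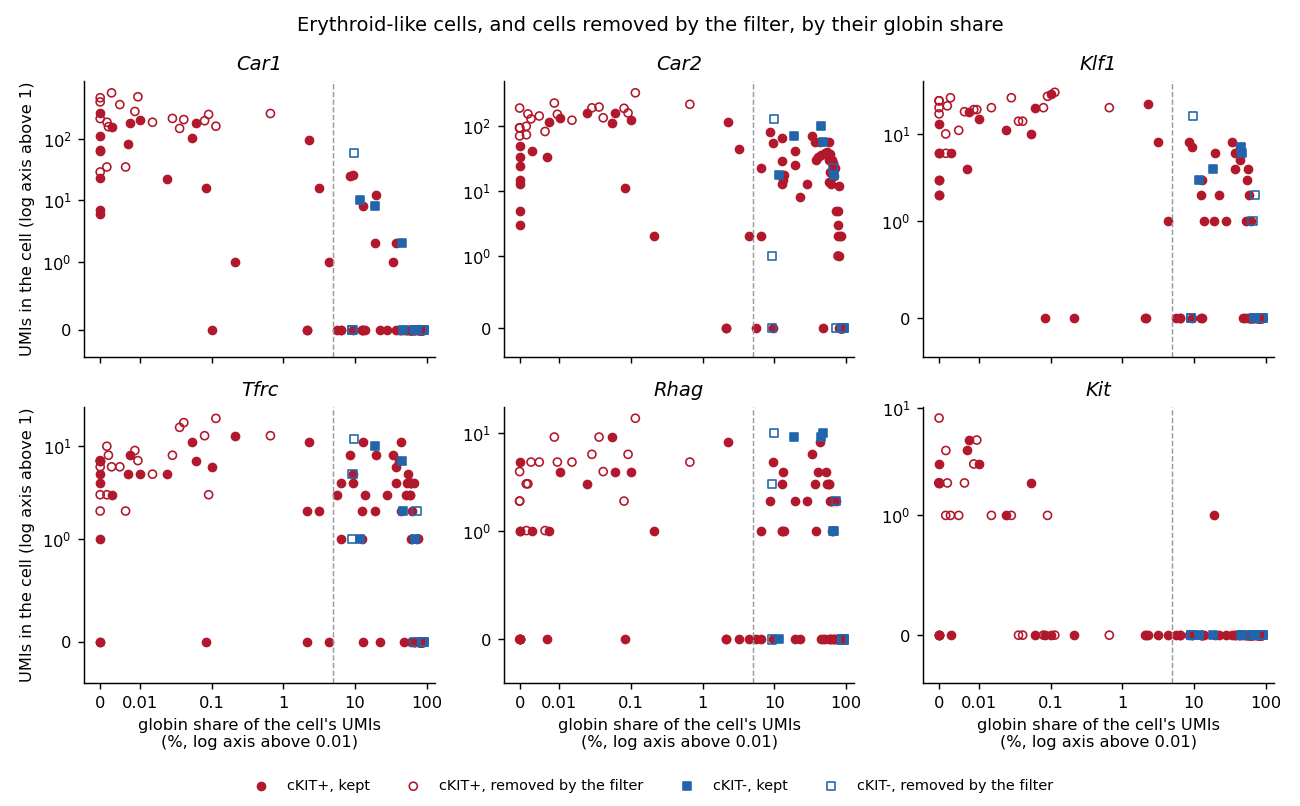
UMIs of Car1, Car2, Klf1, Tfrc, Rhag and Kit in single cells (log axis above 1) against the share of the cell's UMIs from globins in percent (log axis above 0.01), with filled marks for kept erythroid-like cells, open marks for cells removed by the filter that were Car1-rich or globin-high, and a dashed line at 5%. Car1 is high on the left and 0 in the cells at 50% or more, Kit has 1 UMI to the right of the line, and Car2 and Rhag are present on both sides.

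The balance of α and β globin differed between the cells with least globin and the rest. Globin-high cells had 2.37 Hbb-bs UMIs per Hba-a1 UMI (2.34 to 2.39), and the 5 globin-high cells of E-cadherin+cKIT- had 2.41 (2.33 to 2.50). In basophil-like cells that were not globin-high the same ratio was 2.68 (2.30 to 3.14). Other globin ratios differed there. Hba-a2 per Hba-a1 was 0.0711 (0.040 to 0.118), against 0.0141 (0.0130 to 0.0153) in globin-high cells of E-cadherin+cKIT+. Hbb-bt per Hba-a1 was 0.324 (0.246 to 0.424) against 0.238 (0.233 to 0.243). The source of the globin UMIs in basophil-like cells was not tested. The 17 erythroid-like cells with under 0.5% globin had 76 Hba-a1 and 31 Hbb-bs UMIs, a ratio of 0.408 (0.260 to 0.627), so α was the more abundant there. The ratio was not ordered by globin share above that, at 3.25 (2.90 to 3.65) in the 5 cells from 0.5 to 5%, 2.53 from 5 to 50% and 2.32 at 50% or more. Of the 1284 Hbb-bs UMIs in the 5 cells, 752 came from a single cell and 497 from another, so 3.25 is mainly theirs. All 4 erythroid-like cells under 0.5% globin with at least 5 UMIs of the pair had more Hba-a1 than Hbb-bs, against 1 of 56 globin-high cells. In the 19 removed Car1-rich cells with under 0.5% globin the ratio was 0.813 (0.629 to 1.05), and 5 of 9 cells with at least 5 such UMIs had more Hba-a1. The ratio is of UMIs, which this 3′ protocol does not scale by transcript length.

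Car1 had another home outside the erythroid-like cells. In the cluster with the highest Kit, 139 of 439 cells had a Car1 UMI (31.7%), together 20.4% of the Car1 UMIs of kept cells. Of these 139 cells, 113 had Gzmb (81.3%) and 107 had Kit (77.0%). Of the 19 Car1 cells among the other erythroid-like cells none had Gzmb and 8 had Kit. At 2000 UMIs per cell, Car1 was in 13.7% (10.6 to 17.2) and Klf1 in 6.15% (4.09 to 8.82) of the highest-Kit cluster, both above the 0.41% and 1.28% of basophil-like cells. Rhag had no UMI in it, which allows up to 0.767 CPM, and Hbb-bs was in 2.05% of cells, within the background share. Car1 and Klf1 were therefore found there with no Rhag detected and no globin above background. Without the cell filter this cluster held 6.99% of the Car1 UMIs at 137 CPM, a like level but a smaller share, since the Car1-rich erythroid-like cells were back in the total.

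Over all thinned E-cadherin+cKIT+ cells, co-detection followed the same division. Among 106 cells with a Car1 UMI, 35.8% had Gzmb, 26.4% Car2, 21.7% Kit, 16.0% Klf1, 12.3% Hba-a1, 10.4% Tfrc and 7.55% (3.31 to 14.3) Hbb-bs. By share, Gzmb, which is no member, came before every member in cells with Car1. This order also depends on how common each gene was. Over all thinned cells Gzmb was in 6.83%, Car2 in 5.15% and Klf1 in 1.66%. Klf1 was 11.4 times as frequent in cells with Car1 as in cells without it. Among 17 cells with Rhag, 94.1% had Car2, 82.4% had each globin, 58.8% had Klf1 and as many Tfrc, and 23.5% had Car1. Among 55 cells with Hba-a2, 90.9% had Hbb-bs, 85.5% Hba-a1, 67.3% Car2, 32.7% Tfrc, 25.5% Rhag and 5.45% Car1. Hbb-bs itself, in 224 cells, was more diffuse, and 25.4% of these had Hba-a1 and 21.9% Car2. Klf1, in 102 cells, was with Car2 in 22.5%, Tfrc in 18.6% and Car1 in 16.7%. Rhag and Hba-a2 thus had the highest shares with other members among the genes given here. Such shares follow in part from how many cells hold each gene, and these were in few cells (17 and 55).

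Set against cells without the gene, 7 of the 7 other members tested were at least 2-fold more frequent in cells with Car1, where 11.5% of 10916 genes were, and 7 of 7 in cells with Hba-a1, where 6.85% were. In cells with Kit this held for 1 of 8 members, Car1, against 4.55% of genes. In cells with Gzmb it held for 2 of 8, Car1 and Klf1, against 9.4%. Rhag was in fewer than 20 thinned cells and was not tested. These calls depended on depth. With all UMIs in each cell, Car2 (1.94 times), Hba-a1 (1.96), Hbb-bs (1.51) and Tfrc (1.36) were under 2-fold in cells with Car1, and Klf1 (1.67), Tfrc (1.62) and Car2 (1.42) in cells with Hba-a1. In cells with Gzmb, Klf1 was then 1.83 times as frequent, while Car1 remained past 2-fold with Kit (3.10) and with Gzmb (7.51).

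Kit and Gzmb split the share of cells with Car1 in steps. A Car1 UMI was in 1.09% of 5403 cells with neither gene, 2.88% (1.33 to 5.41) of 312 cells with Kit, 8.45% (5.49 to 12.3) of 284 with Gzmb, and 10.4% of 135 with both. Gzmb rather than Kit went with the higher share at this depth, but the genes were not equally well detected. Kit was in 31.7% of cells with all UMIs and 7.29% of thinned cells, and Gzmb in 11.3% and 6.83%. Many cells with Kit were thus counted in the groups without it. Summed Car1 did not follow these steps. It was at 14.8 CPM with neither gene and 80.1 (59.5 to 106) with Kit alone. With Gzmb alone it was at 61.6 (42.9 to 85.7) and with both at 70.4. Klf1 was in 1.44%, 3.21% and 4.93% of the first 3 groups and in 0 of the 135 cells with both (upper bound 2.70%). Car2 was at 4.81%, 7.37%, 7.04% and 9.63%, and Tfrc at 4.05%, 5.45%, 3.87% and 0.741%. Hbb-bs was in 2.01% (0.925 to 3.79) of cells with Kit and 3.78% without it, and with all UMIs in 14.7% and 14.3%, so no difference is read. Over all cells that had Gzmb, Car1 was in 9.07% against 1.19% without Gzmb and Klf1 in 3.34% against 1.54%.

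**Figure D5:**
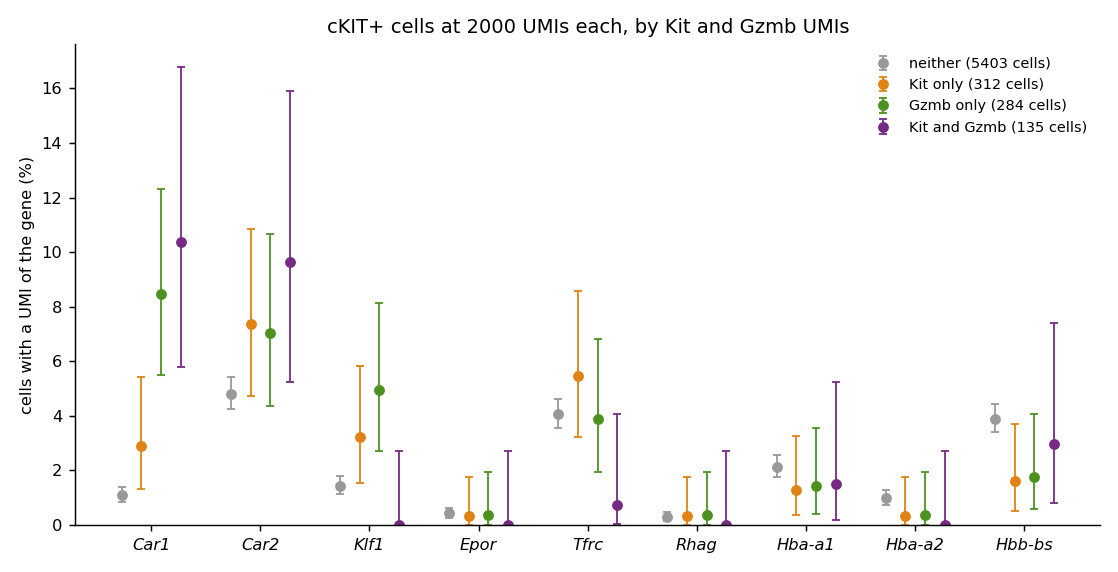
Share of E-cadherin+cKIT+ cells with a UMI of each gene, in percent at 2000 UMIs per cell, for cells with neither Kit nor Gzmb, Kit alone, Gzmb alone or both, with exact binomial 95% intervals. Car1 is in 1.09%, 2.88%, 8.45% and 10.4% of these groups, and Klf1 is in none of the 135 cells with both.

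In E-cadherin+cKIT- the kept erythroid-like cells were 5, and all were globin-high, with globin shares of 68.2%, 47.1%, 44.7%, 18.8% and 11.7%. Their Hbb-bs UMIs were 2648, 3035, 3705, 1310 and 275. Car1 UMIs in the same order were 0, 0, 2, 8 and 10, the whole of the library's kept Car1, so among these 5 the cells with least globin had most Car1. Of 3 removed cells with less globin (9.80%, 9.22% and 9.12%), the first had 59 Car1 UMIs and the others, with 705 and 537 UMIs in all, had none. Car2 had 18, 58, 101, 72 and 18 UMIs, and Kit had none in any of them. Rhag had 1, 10, 9, 9 and 0 UMIs, again the whole of the library's count. In the 3254 basophil-like cells of this library Car1 and Rhag had no UMI, which allows up to 0.142 CPM, while Car2 was at 10.4, Tfrc at 3.03, Epor at 1.56 and Klf1 at 0.474 CPM. Klf1 in cKIT+ basophil-like cells was at 7.61 CPM, and Epor at 2.30 CPM. Without the filter the library had 13 erythroid-like cells, which held all of its 79 Car1 and 45 Rhag UMIs and no Kit.

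Of the sort's own genes, the erythroid-like E-cadherin+cKIT+ cells had little Cdh1. Kit was at 38.6 CPM in those that were not globin-high and 2.93 CPM in those that were. Cdh1 was at 8.80 CPM in the 55 globin-high ones (3 UMIs) and 7.01 CPM in the others (4 UMIs), against 87.4 CPM in basophil-like cells. Low Cdh1 was not particular to them. The 2045 cKIT+ cells of the remaining classes were at 13.7 CPM, and the highest-Kit cluster at 42.9 CPM. Mcpt8 was also low in most of the erythroid-like cells, with at least 100 UMIs in 2 globin-high cells and 1 other. How these cells came to pass the gates was not tested.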

How the data were processed

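The authors sequenced 1 library per fraction, aligned reads to mm10 and deposited the filtered UMI count matrices that Cell Ranger 3.0.2 gave, per the labels. The labels name the v2 kit and the study's methods v3. The count matrices were used as deposited, as raw counts, with no ambient RNA removed. The labels give FVB as the strain, and mm10 is a C57BL/6J reference. The study's filter was applied (genes in at least 40 cells for clustering, and removal of the cells in the highest and lowest 1% of genes and highest 1% of UMIs). UMIs were summed per library or class and given as CPM with exact Poisson intervals, and shares of cells with exact binomial intervals at a confidence of 95%. For CPM, a count of 0 was given the limit of 3 counts. For shares, cells were thinned to 2000 UMIs, which left out 345 E-cadherin+cKIT+ and 176 E-cadherin+cKIT- cells.

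Cells were clustered with Seurat 5.3.0 in R 4.3.3 (2000 variable genes, 15 dimensions, resolution 1), which gave 25 clusters. They were named from marker lists where at least 3 markers were detected and 2 were among the leading genes. A cluster with no marker of another type among its leading genes was also named basophil-like where at least 5 basophil markers were detected. Most basophil-like clusters were named by this second rule. Doublets were kept, and the cells with the highest Scrublet scores (Scanpy 1.11.5) were left out as an alternative. Scrublet itself called 292 and 3 cells, too few to rely on in the second library. With 1 library per group no test was made, and a fold limit was used as the call. TMM factors came from edgeR 4.0.16. NumPy 2.4.6, SciPy 1.17.1, pandas 2.3.3 and matplotlib 3.10.9 were used, and the code was tested on simulated data. Promoters were from a RefSeq table, which held 7 of the 9 members.

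The members and lists were chosen with earlier results of these data known. Genes named in the text were the members, Kit and Gzmb, Cdh1, Mcpt8 and Prss34, from each erythroid list up to 4 genes with the highest summed CPM, and the 3 genes most like Car1, Klf1, Epor, Tfrc and Hba-a1 across clusters. Some genes that this rule names are not reported here. Alternatives without the cell filter for classes, globin ratios and globin ranges, and with globins left out of totals, were added after the data were seen.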

Additional observations from a re-analysis of the deposited data

How the results depend on the processing

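Without the cell filter the ratio of E-cadherin+cKIT+ over E-cadherin+cKIT- reversed to 0.890 for Hba-a1 and 0.868 for Hbb-bs, and Car1 in erythroid-like cells, 1852 CPM, was 3261 CPM when the cells were clustered again. Car1 there was 2019 CPM with the members left out of the clustering genes, 2016 with 30 dimensions, 2028 without the cells with the highest Scrublet scores, and 462 when cells were thinned before clustering. The share of E-cadherin+cKIT+ cells with a member UMI, 14.9%, was 8.55% at 1000 UMIs, 53.2% with all UMIs and 2.25% for at least 2 UMIs. Among Car1 cells, 7.55% had Hbb-bs, and 21.3% with all UMIs. Among Gzmb cells, 9.07% had Car1, 17.9% with all UMIs and 2.05% for at least 2 UMIs. The share of all genes 2-fold higher in E-cadherin+cKIT+, 8.52%, was 15.5% with a minimum of 10 UMIs and 2.14% at 4-fold, and the erythroid list genes so called, 4, were 15 and 2. Leaving globins out of the totals took the Car1 gap between erythroid-like cells from 12.7-fold to 7.13-fold. Without the 5 cells of each library richest in a gene, the Hbb-bs ratio was 185 and the Hba-a1 ratio 197, since those cells held most of the globin of E-cadherin+cKIT-. In all, 31 of the main values under an alternative stayed within their limits and 16 moved. The cause was not tested. No paired analysis was possible because each group was 1 library. Epor and Rhag did not reach the 5 CPM minimum of the library comparison.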

Other observations

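Other red cell genes, from lists chosen by their function, were compared between the globin-high and the other erythroid-like E-cadherin+cKIT+ cells. Of 14 red cell membrane genes with at least 20 CPM in 1 of the compared sets, 7 were at least 4-fold higher in the globin-high cells than in the other erythroid-like cells and none was 4-fold lower, where 5.05% of all genes were that much higher and 26.5% that much lower. Among them were Epb41, Epb42 and Slc4a1, which encodes the band 3 anion exchanger. These names, and those of other genes called below, were taken from the calls after the values were seen. By the naming rule, Epb41 was at 610 CPM in globin-high and 52.6 CPM in other erythroid-like cells, Icam4 at 235 and 110, and Cd47 at 986 and 610. Among other globins and their helpers 3 of 8 were 4-fold higher, namely the second adult β globin Hbb-bt (29244 against 316 CPM), Hemgn (584 against 135) and Alas2, the first enzyme of heme synthesis in red cells.

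Transcription factor genes were mixed, with Nfe2 and E2f2 4-fold higher and Myb 4-fold lower of 14, and Myb was at 32.3 against 219 CPM. Of 7 genes of erythropoietin signalling, Bcl2l1 and Pim1 (361 against 14.0 CPM) were 4-fold higher and Stat5a and Sos1 4-fold lower. Of 11 iron genes, Slc25a37, the mitochondrial iron importer, and Ncoa4 (329 against 31.6 CPM) were 4-fold higher and Tfr2 4-fold lower. Between the libraries, 8.52% of all genes were at least 2-fold higher in E-cadherin+cKIT+. Of the lists, 1 of 14 transcription factors (Myb), none of 11 signalling genes, 2 of 12 iron genes, none of 5 membrane genes and 1 of 5 globins and helpers were. With such small lists no difference from the share of all genes is read. Against the 9.32% of all genes 2-fold higher in E-cadherin+cKIT-, 4 of the 11 signalling genes were, among them Jak2 and Pim1.

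Across the 23 clusters with at least 50 cells, genes whose level was like that of each member were compared by Pearson's r over 9185 genes, as a description, since the clusters share libraries and 1 of them is erythroid-like. Car1 was most like the water channel gene Aqp1 (r of 0.88), and Ank1 was also among the genes named for it. Klf1 was most like Epdr1 (0.90), Mfsd2b and Car2, and Epor most like Blvrb (0.88), Gclm and Smim1. Tfrc went with Abcg2 (0.89), Ttll12 and Endod1. Hba-a1 went with Hbb-bs (0.97) and Hbb-bt.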
